A study of Mus musculus with 24 samples.

Results

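The liver of diet-induced obese mice 6 h after removal of 80% of its mass was compared with the liver of obese mice 6 h after a sham operation. The arrays were chosen by their titles, 4 for obese 80% hepatectomy and 4 for obese sham, and together they are 8 of the 24 arrays of the series. Every probe detected on at least 4 of the 24 arrays was tested, which left 19631 of 45281 probes and 10765 of the 19057 genes that have a probe. The remaining arrays hold obese mice after 70% hepatectomy and lean mice after sham surgery, 70% or 80% hepatectomy, 4 arrays each, and the question of the series is how diet and the amount of liver removed shape the early response. All mice were male C57BL/6J animals obtained from Jackson Labs, given as 12 weeks old in the labels. In the obese 80% group, mice made obese by diet lost 80% of the liver. In the obese sham group, obese mice of the same diet had a midline incision and their liver was moved but not cut, so the diet, the laparotomy and the 6 h interval were common to both. Total RNA came from snap-frozen whole liver. In such bulk samples, fewer cells of a type and less RNA per cell cannot be told apart.

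After part of the liver is removed, the hepatocytes that remain leave quiescence and replace the lost mass without passing through a stem cell stage. In the first hours, cytokines of the innate immune system, chiefly IL-6 acting through STAT3, prime them for growth factors such as HGF, and immediate early transcription factors such as FOS and JUN are induced. DNA synthesis follows later, and meanwhile the remnant has to keep up blood glucose, bile formation, ammonia disposal and plasma proteins for the whole body.

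RNA was read on Illumina BeadChips, which report the brightness of beads that carry a probe for a transcript. Values are log2 intensities after background correction and quantile normalization between arrays. A change is the difference of the group means of these values, obese 80% minus obese sham, with its standard error (SE) from one limma model of all 24 arrays and 4 arrays in each group. A gene was read by its brightest detected probe and was called changed where its Benjamini-Hochberg adjusted p over the 19631 probes was under 0.05. A number in parentheses that directly follows a gene symbol is such a log2 change. Where no array of the lower group detected the probe, the least fold difference that the detection floor allows stands there instead, and where only some did, the number of arrays is given. The 24 arrays detected 15316 to 17463 probes each. Across probes, r was 0.989 to 0.994 between obese 80% arrays, 0.991 to 0.995 between obese sham arrays, and 0.940 to 0.950 between the groups. The labels number the arrays of a group without saying from which animal each came, so the p-values measure the spread between these arrays.

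The 4 obese 80% arrays lay on 1 slide and the obese sham arrays lay in pairs on 2 other slides, and in this comparison surgery cannot be told apart from slide. Hepatocyte markers were bright on average, with list means of 12.9 to 13.06 in the obese 80% livers and 12.62 to 12.75 in the obese sham livers. Of 15 tested markers, 4 (26.7%) were called higher and 2 (13.3%) lower, with a median log2 change of 0.06. Over all genes 23.9% were higher and 28.4% lower, so the share called higher was near that of all genes.

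About as many genes were called changed after removal of 80% of the liver as were not. Of 10765 genes, 5633 (52.3%) were called changed, 2576 (23.9%) higher and 3057 (28.4%) lower. At least 2-fold changes were called for 738 genes (6.86%) on the higher side and 546 genes (5.07%) on the lower side. The 4 obese 80% arrays did not overlap the 4 obese sham arrays in 51.4% of genes, 2532 genes (23.5%) higher and 3001 (27.9%) lower. At the level of probes, 9726 of 19631 (49.5%) were called. The median log2 change of all genes was -0.0375, close to 0. Without normalization between arrays, the median moved to -0.131 and the split to 1744 genes higher and 3182 lower.

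**Figure D1:**
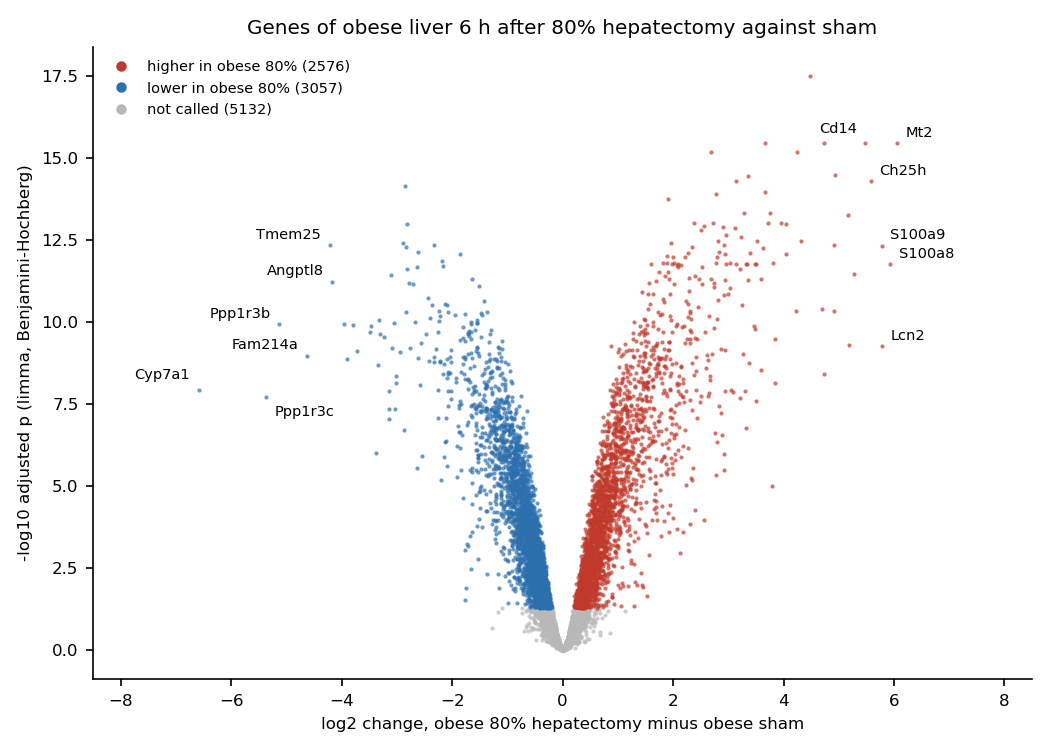
Each point is 1 of the 10765 genes. The horizontal axis gives the log2 change, obese 80% minus obese sham, and the vertical axis the negative log10 of the adjusted p of limma. Red points are the 2576 genes called higher, blue points the 3057 called lower, and grey points the genes not called. Symbols mark the 6 largest fitted changes in each direction.

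Genes are ranked here by the fitted change among called genes whose groups did not overlap. The lack of overlap in the ranked genes thus follows from the choice. A gene undetected in a group has only a bound, so its true place may be higher. Mt2, a metallothionein that binds zinc and copper, read 10.76, 11.45, 11.59 and 11.14 in the obese 80% livers, against 5.29, 5.32, 5.38 and 4.69 in the obese sham livers. This was a 66.8-fold difference (log2 change 6.06, SE 0.22, adjusted p = 3.6e-16, detected on 3 of 4 obese sham arrays), the largest fitted rise among genes detected in both groups. Lcn2, lipocalin 2, which binds bacterial iron carriers, read 14.84, 14.79, 14.79 and 14.84 in the obese 80% livers, against 9.28, 8.70, 9.67 and 8.46 in the obese sham livers. It rose nearly as much (log2 change 5.79, SE 0.48, adjusted p = 5.5e-10), and for both genes every obese 80% array was far above every obese sham array.

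S100a8, a subunit of the neutrophil protein calprotectin, read 11.77, 11.11, 11.51 and 11 in the obese 80% livers, against 5.80, 5.18, 5.61 and 5.05 in the obese sham livers (log2 change 5.93, SE 0.35, adjusted p = 1.7e-12). Its partner S100a9 read 10.64, 10.11, 10.35 and 10.13 in the obese 80% livers, against 4.50, 4.45, 4.68 and 4.49 in the obese sham livers and was at least 45.5-fold higher (adjusted p = 4.8e-13). All 4 obese 80% arrays stood above all 4 obese sham arrays for both. Ch25h, which makes the oxysterol 25-hydroxycholesterol, was at least 35.3-fold higher (adjusted p = 5.1e-15). Cd14, the co-receptor for endotoxin, read 10.72, 10.86, 11.01 and 10.96 in the obese 80% livers, against 5.62, 5.49, 5.47 and 5.05 in the obese sham livers (log2 change 5.48, SE 0.20, adjusted p = 3.6e-16).

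Among the genes of metabolism and growth control, Igfbp1, a liver binding protein of insulin-like growth factors that insulin represses, read 11.37, 11.88, 11.56 and 11.61 in the obese 80% livers, against 5.89, 6.89, 6.60 and 5.91 in the obese sham livers (log2 change 5.29, SE 0.33, adjusted p = 3.4e-12). Pdk4, the kinase that shuts pyruvate dehydrogenase, read 12.15, 10.38, 11.50 and 11.60 in the obese 80% livers, against 6.23, 6.31, 6.20 and 6.13 in the obese sham livers (log2 change 5.19, SE 0.43, adjusted p = 5.0e-10). Both were bright after resection and dim after sham surgery, without overlap. The other large rises were those of Socs3 (5.17), the feedback inhibitor of STAT3 signalling, Sphk1 (4.94, detected on 3 of 4 obese sham arrays), which makes sphingosine 1-phosphate, and the neutrophil-attracting chemokine Cxcl1 (4.91). Fos (4.91), the TWEAK receptor gene Tnfrsf12a (4.74), Ly6d (4.73) and Hilpda (4.70), a lipid droplet protein that restrains the lipase ATGL, completed the 15 largest fitted rises.

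The largest fitted falls were led by Cyp7a1, Ppp1r3c and Ppp1r3b. Cyp7a1, which catalyses the rate-limiting step that turns cholesterol into bile acids, read 4.50, 4.42, 4.42 and 5.82 in the obese 80% livers, against 11.53, 11.82, 10.86 and 11.33 in the obese sham livers and was above background on 1 of the 4 obese 80% arrays, so its fall (adjusted p = 1.1e-08) has no exact size. Ppp1r3c, which brings protein phosphatase 1 to glycogen, read 6.70, 6.66, 6.40 and 6.51 in the obese 80% livers, against 12.15, 11.99, 11.82 and 11.77 in the obese sham livers (log2 change -5.36, SE 0.55, adjusted p = 2.0e-08). Ppp1r3b, another glycogen-targeting subunit, read 6.48, 5.92, 6.14 and 6.21 in the obese 80% livers, against 11.44, 11.43, 11.13 and 11.25 in the obese sham livers (log2 change -5.13, SE 0.39, adjusted p = 1.1e-10). None of the 3 genes overlapped between groups.

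G6pc, the catalytic subunit of glucose 6-phosphatase, read 8.99, 8.78, 8.34 and 8.55 in the obese 80% livers, against 12.54, 12.88, 12.59 and 12.49 in the obese sham livers (log2 change -3.96, SE 0.30, adjusted p = 1.1e-10). Angptl8, an insulin-induced hepatokine that inhibits lipoprotein lipase, read 6.65, 6.19, 6.55 and 6.61 in the obese 80% livers, against 11.01, 9.98, 10.72 and 10.97 in the obese sham livers (log2 change -4.17, SE 0.27, adjusted p = 5.9e-12). In both genes the highest obese 80% array was below the lowest obese sham array. Large falls were also called for Fam214a (-4.63), Tmem25 (-4.22), the fatty acid elongase gene Elovl3 (-3.90), the succinate receptor gene Sucnr1 (-3.80), the replication initiation factor Mcm10 (-3.73), and G0s2 (-3.48), another inhibitor of ATGL. Shmt1 (-3.47), the cytosolic serine hydroxymethyltransferase, the potassium channel gene Kcnk5 (-3.37), the kinase gene Aatk (-3.33) and Lrtm1 (-3.32, detected on 3 of 4 obese 80% arrays) followed.

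**Figure D2:**
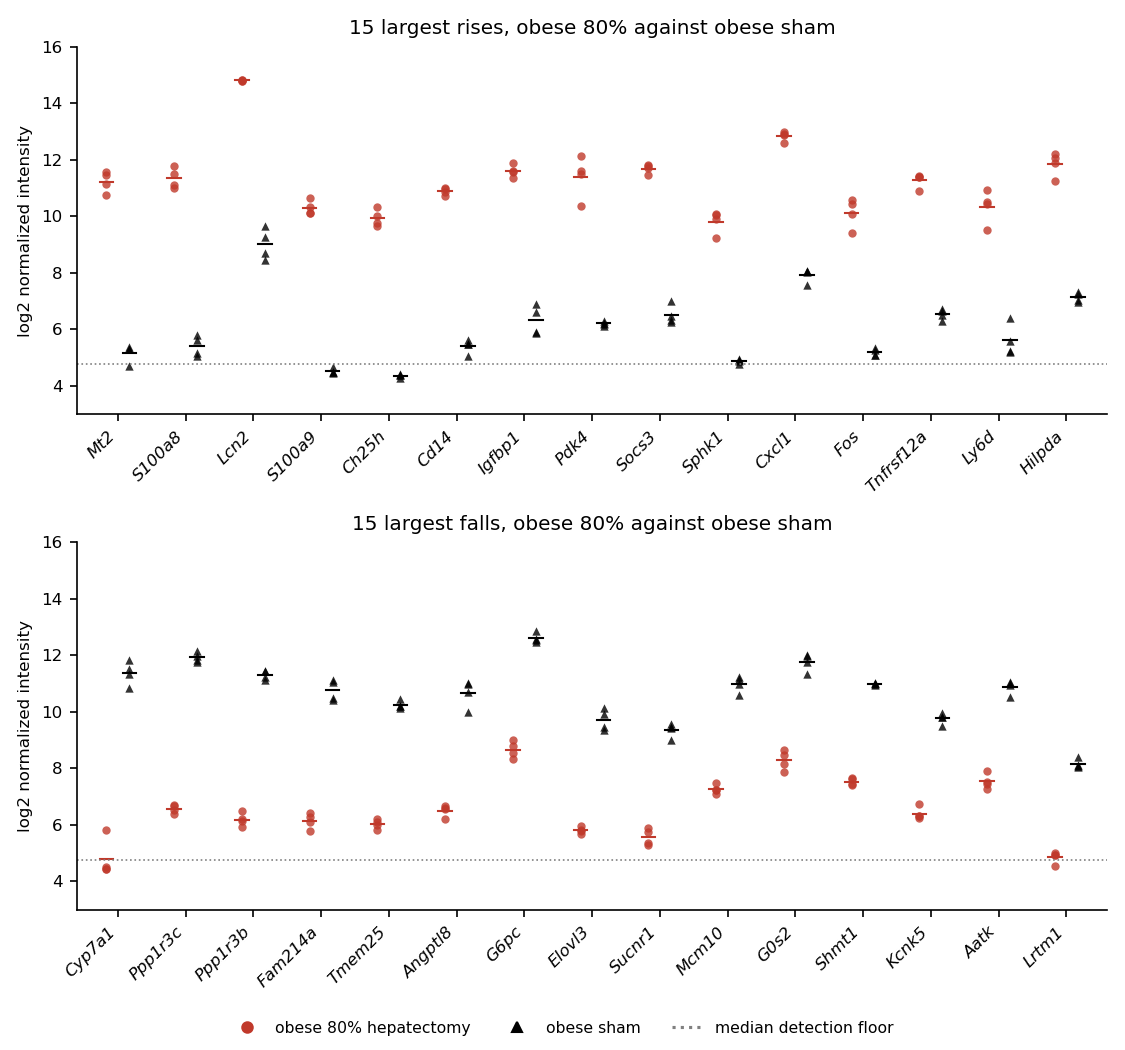
Log2 normalized intensity on each array for the 15 largest fitted rises (upper panel) and the 15 largest fitted falls (lower panel) among called genes whose groups did not overlap. Red circles are the 4 obese 80% arrays and black triangles the 4 obese sham arrays, with a short bar at each group mean. The dotted line marks the median detection floor. In all 30 genes the symbols of the groups form separate clusters, which follows from the choice of genes.

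Immediate early genes rose together. Of 21 tested members of a list of 25, 19 (90.5%) were called higher and 0 lower, with a median log2 change of 1.68. Besides Fos, the largest rises were in Ier3 (4.23), Egr1 (3.85), Junb (3.80) and Klf6 (3.49). Myc, the growth-promoting transcription factor, read 5.12, 4.53, 5.02 and 5.36 in the obese 80% livers, against 4.37, 4.45, 4.55 and 4.39 in the obese sham livers (at least 1.15-fold higher, adjusted p = 0.0050). It was above background on 3 of the 4 obese 80% arrays, and the groups overlapped by 1 array. The phosphatases and Sprouty-type proteins that shut down MAPK signalling moved the same way: of 13 tested members, 11 (84.6%) were called higher and 0 lower, with a median log2 change of 0.77. Dusp5 (at least 9.36-fold higher), Dusp4 (2.86) and Dusp8 (2.41, detected on 3 of 4 obese sham arrays) led them, and Dusp6 (log2 change 0.41, adjusted p = 0.10), a phosphatase of ERK, was not called.

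Genes of IL-6 signalling and its feedback were also called higher more often than lower. Socs3 read 11.46, 11.83, 11.72 and 11.77 in the obese 80% livers, against 7.02, 6.32, 6.49 and 6.27 in the obese sham livers (log2 change 5.17, SE 0.25, adjusted p = 5.7e-14), and all 4 obese 80% values stood above every obese sham value. Of 16 tested genes of the receptors, kinases and inhibitors of this pathway, 12 (75%) were called higher and 2 (12.5%) lower, with a median log2 change of 0.77. The oncostatin M receptor gene Osmr (1.64), Stat3 (1.60), the phosphatase gene Ptpn2 (at least 2.59-fold higher) and Socs2 (1.29) rose, and the STAT3 inhibitor Pias3 (-1.19) and the kinase Tyk2 (-0.43) fell. Il6 itself was dim, at 5.56, 4.79, 5.30 and 5.64 in the obese 80% livers, against 4.33, 4.32, 4.56 and 4.34 in the obese sham livers (at least 1.43-fold higher, adjusted p = 2.4e-05), and was above background on 3 of the 4 obese 80% arrays.

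The promoter of Socs3 is shown because STAT3 is known to act on it. In the RefSeq promoter table for GRCm38.p6, a window of 300 bases from 250 before to 50 after each start site, the letters TTCNNNGAA were searched on both strands, and 8.47% of all 27025 windows hold them. The Socs3 window (chr11:117969317-117969616, minus strand) holds 1 match, in capitals, from base 97 of the window.
Socs3: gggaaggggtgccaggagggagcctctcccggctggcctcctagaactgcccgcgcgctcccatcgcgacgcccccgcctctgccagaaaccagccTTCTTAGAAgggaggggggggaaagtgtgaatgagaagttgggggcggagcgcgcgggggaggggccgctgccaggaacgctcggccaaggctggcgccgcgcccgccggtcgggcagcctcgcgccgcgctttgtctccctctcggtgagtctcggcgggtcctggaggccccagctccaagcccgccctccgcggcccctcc
A match in a window is a description of its letters and does not show that a factor bound there.

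Acute phase proteins, the plasma proteins that hepatocytes make under IL-6 and IL-1, rose broadly. Of 24 tested members of 29 listed, 19 (79.2%) were called higher and 2 (8.33%) lower, with a median log2 change of 1.45. After Mt2 and Lcn2 came Saa2 (3.85), Steap4 (3.25) and Saa1 (3.03). Saa1 was already bright after sham surgery, at 12.14 on the log2 scale, and its mean of 15.17 after resection lies near the top of the scale at 15.4. The fibrinogen chain gene Fgb (2.68) rose, while Crp (log2 change 0.05, adjusted p = 0.81) and the iron hormone gene Hamp (log2 change -0.11, adjusted p = 0.73) were not called. The receptor accessory gene Il1rap (-0.68) and the lipoprotein-bound Saa4 (-1.57) fell. Whether the probes tell the near-identical Saa1 and Saa2 apart was not tested.

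Zinc handling moved with the metallothioneins. Mt1 read 14.96, 14.92, 15.08 and 14.90 in the obese 80% livers, against 12.27, 11.91, 12.77 and 11.48 in the obese sham livers (log2 change 2.86, SE 0.32, adjusted p = 6.0e-08), apart between groups, with the resected livers near the top of the scale at 15.4. Of 21 tested metallothionein and zinc transport genes, 11 (52.4%) were called higher and 3 (14.3%) lower, with a median log2 change of 0.43. The importers Slc39a14 (2.45), which IL-6 is known to induce in hepatocytes, and Slc39a6 (1.69) rose, as did the transporter Slc30a7 (1.16), which loads zinc into the secretory pathway. The importers Slc39a5 (at least 1.28-fold lower), Slc39a11 (-0.37) and Slc39a8 (at least 1.04-fold lower) fell.

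The promoter windows of both metallothionein genes are shown because the zinc sensor MTF1 is known to act there through a short core. The letters TGCNCNC were searched on both strands and are common, in 50.4% of all windows of this length. The Mt2 window (chr8:94172368-94172667, plus strand) holds 6 matches and the Mt1 window (chr8:94178839-94179138, plus strand) holds 3, in capitals.
Mt2: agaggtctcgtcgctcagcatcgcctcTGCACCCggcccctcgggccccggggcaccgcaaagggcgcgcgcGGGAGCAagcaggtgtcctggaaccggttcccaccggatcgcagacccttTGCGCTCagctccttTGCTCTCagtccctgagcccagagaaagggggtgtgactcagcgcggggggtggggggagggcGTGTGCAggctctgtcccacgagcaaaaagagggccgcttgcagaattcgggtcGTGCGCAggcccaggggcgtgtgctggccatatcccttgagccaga
Mt1: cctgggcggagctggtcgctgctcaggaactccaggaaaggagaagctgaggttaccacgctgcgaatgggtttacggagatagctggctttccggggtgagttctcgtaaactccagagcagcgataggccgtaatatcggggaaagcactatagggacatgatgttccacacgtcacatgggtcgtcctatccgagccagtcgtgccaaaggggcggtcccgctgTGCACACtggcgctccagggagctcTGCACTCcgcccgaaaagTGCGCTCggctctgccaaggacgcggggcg
Of the 8709 tested genes with a window, 58.9% hold the core, and of the 588 called at least 2-fold higher, 59.0% do.

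Endotoxin sensing and NF-kB feedback genes were higher as a group: of 22 tested members, 19 (86.4%) were called higher and 0 lower, with a median log2 change of 0.95. After Cd14, the largest rises were in Il1b (2.36, detected on 3 of 4 obese sham arrays), its antagonist Il1rn (2.13), the NF-kB cofactor Bcl3 (2.06) and Ly96 (1.88), the partner of the endotoxin receptor. Tlr4 (log2 change 0.27, adjusted p = 0.18), that receptor itself, was not called. Chemokine genes rose more often than they fell. Of 23 tested, 11 (47.8%) were called higher and 2 (8.70%) lower, with a median log2 change of 0.46 (0.30 with undetected members at their bound). Cxcl2 (at least 8.58-fold higher), Ccl7 (2.95, detected on 1 of 4 obese sham arrays), Ccl6 (2.11, detected on 3 of 4 obese sham arrays) and Cxcl14 (1.92, detected on 1 of 4 obese sham arrays) followed Cxcl1, while Cxcl12 (-1.72), which holds leukocytes in tissues, and Ccl27a (-0.81) fell.

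The 8 neutrophil markers with a detected probe were called higher, with a median log2 change of 2.54 (2.32 with undetected members at their bound) and mean levels over the list of 7.40 to 7.84 in the obese 80% livers and 4.66 to 4.86 in the obese sham livers. Besides S100a8 and S100a9 these were Retnlg (at least 7.06-fold higher), the decoy receptor gene Il1r2 (at least 6.83-fold higher), Fpr2 (1.87), Csf3r (1.25, detected on 2 of 4 obese sham arrays), Cxcr2 (at least 1.39-fold higher) and Mmp9 (0.46, detected on 3 of 4 obese sham arrays). No obese sham array detected S100a9, Retnlg, Il1r2 or Cxcr2, which entered the test only through arrays of other groups, so the count is a description. The other 10 of the 18 listed markers had no detected probe, among them those of the granule proteins Mpo, Elane, Camp, Ltf and Mmp8. Of 18 tested Kupffer cell and macrophage markers, 2 were higher, Cd14 and Marco (0.82, detected on 3 of 4 obese sham arrays), and 3 lower, Slc40a1 (-1.49), Mrc1 (-0.72) and Csf1r (-0.59), with mean levels of 7.98 to 8.48 in the obese 80% livers and 7.84 to 8.18 in the obese sham livers. Clec4f (log2 change -0.10, adjusted p = 0.67), which marks Kupffer cells, was not called. Of 6 tested T, B and NK cell markers 1 was higher, Prf1 (0.93), and 1 lower, Cd79b (-0.51, detected on 1 of 4 obese 80% arrays and 3 of 4 obese sham arrays). The part of infiltrating cells in the rises of calprotectin, Cd14 and the chemokines was not tested.

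Genes of the vessel wall moved in both directions. Of 20 tested endothelial markers, 7 (35%) were called higher and 10 (50%) lower, with a median log2 change of -0.35, against 23.9% and 28.4% of all genes. Thbd, thrombomodulin, read 10.61, 10.86, 11.07 and 11.12 in the obese 80% livers, against 6.45, 6.50, 6.53 and 6.29 in the obese sham livers (log2 change 4.47, SE 0.13, adjusted p = 3.2e-18), and the sinusoidal marker Lyve1 (2.66) and Cdh5 (1.42) rose as well. Fcgr2b (-1.10), Clec4g (-0.86), Dnase1l3 (-0.80) and Mmrn2 (-0.74), the first 3 typical of liver sinusoids, fell. Mean levels over the list were 7.85 to 8.12 in the obese 80% livers and 7.71 to 7.78 in the obese sham livers. Of 22 coagulation genes tested, 3 were higher and 10 (45.5%) lower, among them Klkb1 (-1.30), which encodes plasma prekallikrein, F7 (-0.83), Serpind1 (-0.71) and F8 (-0.60). Complement genes moved little, with 1 of 23 higher and 5 lower.

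Cytoskeletal targets of SRF and targets of YAP rose: of 19 tested, 15 (78.9%) were called higher and 0 lower, with a median log2 change of 1.60. Ccn1 (3.26) and Ccn2 (2.94), both classical YAP targets, smooth muscle actin Acta2 (3.21), Tead1 (2.93) and Tpm4 (2.73) led. Among 34 genes of the extracellular matrix and its proteases, 16 (47.1%) were called higher and 3 (8.82%) lower, with a median log2 change of 0.27 (0.16 with undetected members at their bound). The protease inhibitor Timp1 (3.32, detected on 1 of 4 obese sham arrays), the basement membrane collagen Col4a1 (2.90) and the proteases Adamts9 (2.33) and Adamts4 (at least 2.97-fold higher) rose, Col18a1 (-1.11) and the integrin Itgb5 (-0.88) fell, and the collagen-binding proteoglycan gene Lum (log2 change -0.40, adjusted p = 0.14) was not called. Of 14 stellate cell and fibroblast markers, 3 (21.4%) were higher and 2 (14.3%) lower, against 23.9% and 28.4% of all genes. Their mean levels were 7.20 to 7.68 in the obese 80% livers and 7.12 to 7.26 in the obese sham livers.

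The Srf promoter window is shown because SRF is known to act on its own gene through CArG boxes, which 1.57% of all windows hold on either strand. Srf read 8.54, 8.39, 9.01 and 8.97 in the obese 80% livers, against 6.49, 6.41, 6.34 and 6.46 in the obese sham livers (log2 change 2.30, SE 0.18, adjusted p = 3.3e-10). Its window (chr17:46556113-46556412, minus strand) holds 2 matches, in capitals.
Srf: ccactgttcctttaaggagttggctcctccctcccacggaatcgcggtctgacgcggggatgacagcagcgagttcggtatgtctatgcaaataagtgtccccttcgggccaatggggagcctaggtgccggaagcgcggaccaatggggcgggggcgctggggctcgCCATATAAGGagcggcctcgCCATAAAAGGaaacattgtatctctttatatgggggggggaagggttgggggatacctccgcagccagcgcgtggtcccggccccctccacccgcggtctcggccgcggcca
Windows of the called genes Fos, Junb, Ccn1 and Acta2 held no match to this box, which says only that those letters are not in these 300 bases.

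Growth factor and hypoxia genes rose in part. Of 21 tested growth factors and receptors, 9 (42.9%) were called higher and 5 (23.8%) lower, with a median log2 change of 0.49. After Igfbp1 and Tnfrsf12a came the activin-binding protein Fst (at least 4.34-fold higher), the EGF receptor ligand Hbegf (2.14, detected on 2 of 4 obese sham arrays) and the urokinase receptor gene Plaur (2.06, detected on 1 of 4 obese sham arrays). Hgf (0.74) rose less. The falls were in Igfals (-2.41), which carries IGF1 in plasma, the activin subunits Inhbc (-2.03) and Inhbe (-1.66), Klb (-1.23) and Igfbp4 (-0.72), and Igf1 (log2 change 0.21, adjusted p = 0.13) was not called. Of 18 hypoxia and glycolysis genes, 9 (50%) were called higher and 3 (16.7%) lower, with a median log2 change of 0.36. Hmox1 (2.35), Slc2a1 (1.83), Hif1a (1.73) and Adm (at least 2.61-fold higher) rose, Pdk1 (-1.31) and Vegfa (-0.64) fell, and Ldha (log2 change -0.13, adjusted p = 0.42) was not called.

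Glycogen and glucose genes leaned to lower levels. Of 19 glycogen genes, 3 (15.8%) were called higher and 8 (42.1%) lower, with a median log2 change of -0.25. Below the 2 targeting subunits, Stbd1 (-1.27), Pygl (-0.81), liver glycogen phosphorylase, and Phka2 (-0.80) fell, Ppp1r3g (1.53, detected on 1 of 4 obese sham arrays) rose, and the liver glycogen synthase Gys2 (log2 change -0.36, adjusted p = 0.18) was not called. Of 22 genes of gluconeogenesis and pyruvate use, 3 (13.6%) were higher and 13 (59.1%) lower. Next to Pdk4, Irs2 (1.67) and Tat (1.13) rose. After G6pc, the falls were in Pklr (-1.54), liver pyruvate kinase, Irs1 (-1.45, detected on 1 of 4 obese 80% arrays), Pdk1 and Pdk2 (-1.22). Pck1 (log2 change -0.39, adjusted p = 0.14), the other well-known step of gluconeogenesis, was not called.

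Genes of fatty acid synthesis fell. Of 24 tested, 1 (4.17%) was called higher and 15 (62.5%) lower, with a median log2 change of -0.82. Srebf1, the transcription factor that insulin uses to induce them, read 6.33, 6.46, 6.38 and 6.57 in the obese 80% livers, against 8.03, 8.11, 8.62 and 8.28 in the obese sham livers (log2 change -1.82, SE 0.22, adjusted p = 2.8e-07). Mid1ip1 (-2.77), Agpat2 (-1.81) and Thrsp (-1.80) fell with Elovl3, Insig2 (0.77) rose, and the desaturase Scd1 (log2 change -0.09, adjusted p = 0.73) was not called. Cholesterol synthesis showed 0 of 18 genes higher and 7 (38.9%) lower, with Sc5d (-2.79, detected on 2 of 4 obese 80% arrays), Stard4 (-2.11) and Dhcr7 (-0.92) the largest falls and Srebf2 (log2 change -0.24, adjusted p = 0.17) not called.

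The coat proteins of lipid droplets and the lipases split. Of 24 genes, 9 (37.5%) were called higher and 9 (37.5%) lower, with a median log2 change of 0.07. Hilpda rose with Plin2 (2.25), the main droplet coat protein of hepatocytes, Cidec (2.00), Plin3 (1.62) and Pnpla2 (1.47), which encodes the lipase ATGL, while G0s2, the phosphatidate phosphatase Lpin1 (-1.40), lysosomal lipase Lipa (-1.09), Cideb (-0.78) and Mgll (-0.67) fell. G0s2 read 8.48, 7.87, 8.16 and 8.66 in the obese 80% livers, against 12.03, 11.35, 11.78 and 11.96 in the obese sham livers (log2 change -3.48, SE 0.27, adjusted p = 2.0e-10), so 1 inhibitor of ATGL was lower and another, Hilpda, higher. Of 30 genes of fatty acid oxidation, ketogenesis and PPARA, 1 was higher, Acot2 (1.52, detected on 3 of 4 obese sham arrays), and 16 (53.3%) lower, with a median log2 change of -0.44. The thioesterases Acot3 (-1.73), Acot4 (-1.73) and Acot1 (-0.99) and the ketone-forming Acat1 (-1.12) had the largest falls. Acadl (log2 change -0.15, adjusted p = 0.33), a dehydrogenase of long-chain acyl-CoA, was not called. Of 23 apolipoprotein and lipoprotein genes, 6 (26.1%) were higher, a share near the 23.9% of all genes, and 3 (13%) lower, against 28.4%. The rises were led by Apobec1 (1.38), the cholesterol exporter Abca1 (1.24, detected on 2 of 4 obese sham arrays) and the lipase inhibitor Angptl4 (1.13). The falls were those of Angptl8, Apoc4 (-0.47) and Apoe (-0.33).

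Genes of bile acid synthesis and transport fell more often than they rose. Of 26 tested, 1 (3.85%) was called higher and 14 (53.8%) lower, with a median log2 change of -0.39. Cyp8b1, which sets the share of cholic acid, read 10.62, 11.22, 10.48 and 11.24 in the obese 80% livers, against 13.89, 14.03, 13.42 and 13.72 in the obese sham livers (log2 change -2.87, SE 0.34, adjusted p = 1.9e-07). Nr1h4, the bile acid receptor FXR, read 9.67, 9.58, 9.28 and 9.62 in the obese 80% livers, against 11.72, 11.76, 11.61 and 11.70 in the obese sham livers (log2 change -2.16, SE 0.20, adjusted p = 3.9e-09). Slc10a1 (-1.83, detected on 3 of 4 obese 80% arrays), the sodium-dependent importer of bile acids, and the sterol exporter Abcg8 (-1.39) fell too, while Slc51b (3.79, detected on 3 of 4 obese sham arrays), the beta subunit of the basolateral bile acid exporter, was the single member called higher. The canalicular bile salt pump gene Abcb11 (log2 change -0.24, adjusted p = 0.35) was not called.

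Genes of amino acid catabolism mostly fell. Of 41 tested genes, 2 (4.88%) were called higher and 29 (70.7%) lower, with a median log2 change of -0.54. Shmt1 read 7.61, 7.44, 7.40 and 7.67 in the obese 80% livers, against 11.03, 11.03, 10.96 and 10.98 in the obese sham livers (log2 change -3.47, SE 0.26, adjusted p = 1.3e-10), and Kynu (-1.86) of the kynurenine pathway, Bhmt (-1.77), which remethylates homocysteine, and Prodh (-1.60) followed. Aass (1.47), which opens lysine breakdown, and Tat, tyrosine aminotransferase, were the 2 called higher. In the urea cycle, Arg1 (log2 change -0.14, adjusted p = 0.18) was not called. Of 24 amino acid transporters, 6 (25%) were higher, led by Slc3a2 (1.72) and Slc38a2 (1.43), and 7 (29.2%) lower, led by Slc1a4 (-0.72, detected on 3 of 4 obese 80% arrays), shares near the 23.9% and 28.4% of all genes.

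Genes of drug metabolism fell more often than they rose. Of 30 cytochromes P450 of families 1 to 3, 1 was higher, Cyp2c70 (0.73), and 12 (40%) lower, with Cyp2c38 (-1.25, detected on 3 of 4 obese 80% arrays), Cyp2c54 (-0.83) and Cyp3a25 (-0.71) the largest falls and Cyp2e1 (log2 change -0.06, adjusted p = 0.64) not called. Of 30 conjugating transferases, 4 were higher, Gsta1 (1.44), Gsta2 (1.01), Nnmt (0.85) and Sult1a1 (0.50), and 13 (43.3%) lower, led by Sult1c2 (-0.86) and Ugt2a3 (-0.79). Members of these families are similar in sequence, and whether each probe reads 1 member was not tested.

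The transcription factors of liver identity and metabolism fell more often than they rose. Of 31 tested, 4 (12.9%) were called higher and 17 (54.8%) lower, with a median log2 change of -0.67. Cebpb (1.64) rose and Cebpa (-1.40) fell, the pair of C/EBP factors tied to proliferating and resting hepatocytes. FXR, Nr1i3 (-1.94), which is the xenobiotic receptor CAR, Tef (-1.36) and the oestrogen receptor Esr1 (-1.29) fell and Hnf4a (0.43) rose slightly. Among 16 clock genes, 3 (18.8%) were higher and 6 (37.5%) lower, against 23.9% and 28.4% of all genes. The kinases Csnk1d (1.25) and Csnk1e (1.09) rose, and Usp2 (-3.23) and Arntl (-1.67), which encodes BMAL1, fell.

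The plot of called shares sets each list beside the share over all genes.

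**Figure D3:**
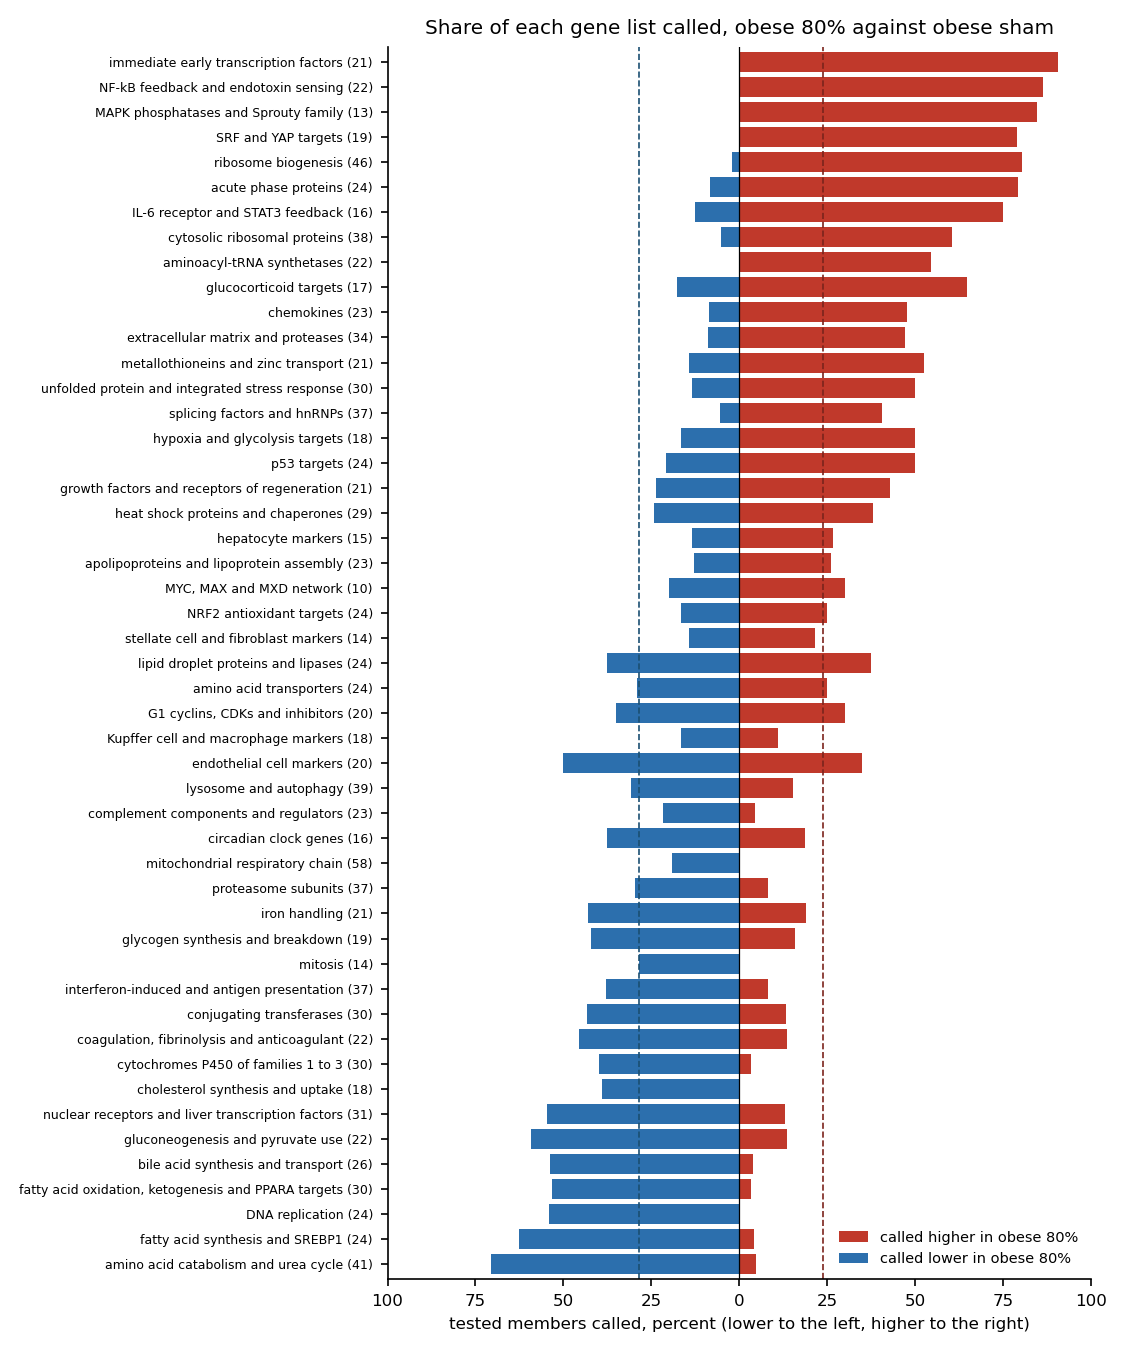
Share of tested members called higher (red, to the right) and lower (blue, to the left) in obese 80% livers against obese sham livers, in percent, for each gene list with at least 10 tested members. The number of tested members stands after each name. Dashed lines mark the shares over all genes, 23.9% higher and 28.4% lower. Immediate early genes and ribosome biogenesis reach far past the line on the higher side, and amino acid catabolism and fatty acid synthesis past the line on the lower side.

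At 6 h the genes of DNA synthesis were not higher. Of 24 tested DNA replication genes, 0 were called higher and 13 (54.2%) lower, with a median log2 change of -0.53. Mcm10 read 7.25, 7.47, 7.24 and 7.08 in the obese 80% livers, against 11.23, 11.17, 10.58 and 10.97 in the obese sham livers (log2 change -3.73, SE 0.32, adjusted p = 7.7e-10), and Tk1 (-2.26), Rpa1 (-1.39) and Mcm5 (-1.05) fell. Whether the bright Mcm10 probe reads that gene alone was not tested. Pcna (log2 change 0.32, adjusted p = 0.12) was not called. Of 14 mitosis genes, 0 were higher and 4 (28.6%) lower, led by Cenpa (-0.79), a share near the 28.4% lower of all genes. Cdk1 (log2 change -0.16, detected on 1 of 4 obese 80% arrays and 3 of 4 obese sham arrays, adjusted p = 0.38) was not called. Most other listed mitosis genes had no detected probe. Among 20 cyclins, CDKs, their inhibitors and E2F factors, 6 (30%) were higher and 7 (35%) lower, against 23.9% and 28.4% of all genes. Cdkn1a, the inhibitor p21, read 12.08, 11.77, 11.88 and 11.95 in the obese 80% livers, against 10.07, 10.15, 10.40 and 9.47 in the obese sham livers (log2 change 1.89, SE 0.28, adjusted p = 4.2e-06), and E2f3 (1.07) and Ccnd1 (0.73) rose while E2f1 (-1.43) and the inhibitor Cdkn1c (-1.13) fell.

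Of 24 p53 targets, 12 (50%) were called higher and 5 (20.8%) lower, with a median log2 change of 0.35. Gadd45g (3.52), Gadd45b (2.76, detected on 1 of 4 obese sham arrays) and Gadd45a (2.17), stress sensors that many other pathways also induce, led the rises with Btg2 (at least 3.28-fold higher) and Plk3 (1.96), and Trp53inp2 (-2.19), Bbc3 (-1.06) and Ccng1 (-1.05) fell. In the MYC network, Mxd1 (1.04) rose with Myc and Mlxip (0.40), and Mycl (-1.92) and Mxd4 (-0.79) fell.

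The machinery that makes ribosomes rose as a block. Of 46 tested genes of ribosome biogenesis, 37 (80.4%) were called higher and 1 (2.17%) lower, with a median log2 change of 1.01. Heatr1, needed for transcription of ribosomal RNA, read 12.09, 12.36, 12.44 and 12.48 in the obese 80% livers, against 9.29, 9.47, 9.40 and 9.34 in the obese sham livers (log2 change 2.97, SE 0.16, adjusted p = 2.2e-13). Nop58 (2.21), a core protein of box C/D particles, Gar1 (2.01), Rrp1b (1.93) and Gnl2 (1.84) followed. Tsr1, the single gene called lower, had another probe called the other way. Cytosolic ribosomal proteins rose by small steps: of 38 tested, 23 (60.5%) were called higher and 2 (5.26%) lower, with a median log2 change of 0.27. Rpl12 (0.91) and Rplp0 (0.64) had the largest rises. Of 22 aminoacyl-tRNA synthetases and partners, 12 (54.5%) were called higher and 0 lower, with a median log2 change of 0.38, led by Eef1e1 (1.23), Sars (0.83) and Cars (0.66, detected on 3 of 4 obese sham arrays).

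Other parts of gene expression and protein turnover moved less. Of 37 splicing factors, 15 (40.5%) were higher, led by Srsf5 (1.49) and Snrpd1 (1.09), and 2 lower. Among 37 proteasome genes, 3 (8.11%) were higher, against 23.9% of all genes, and 11 (29.7%) lower, near the 28.4% of all genes. Psmb9 (-1.09), a subunit of the immunoproteasome, fell most, and Psmd8 (0.83) rose. Polyamine synthesis had Odc1 (0.81), its first enzyme, Srm (1.14) and Smox (1.53) higher and Oaz2 (-0.56) and Mtap (-0.49) lower among 8 tested genes.

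Genes of the unfolded protein and integrated stress responses, taken as 1 list, rose more often than they fell. Of 30 tested, 15 (50%) were called higher and 4 (13.3%) lower, with a median log2 change of 0.54. Chac1, a glutathione-degrading enzyme, read 11.11, 10.85, 10.77 and 10.50 in the obese 80% livers, against 7.20, 6.99, 7.12 and 7.04 in the obese sham livers (log2 change 3.72, SE 0.19, adjusted p = 1.0e-13). Asns, asparagine synthetase, read 7.32, 7.13, 6.87 and 6.72 in the obese 80% livers, against 4.69, 4.80, 4.55 and 4.65 in the obese sham livers (log2 change 2.34, SE 0.21, adjusted p = 1.8e-09, detected on 1 of 4 obese sham arrays). Psat1 (at least 3.99-fold higher), the chaperone Hspa5 (1.65) and Nupr1 (1.56) rose, and Ern1 (-0.89), Atf5 (-0.66) and Herpud1 (-0.61) fell. Calr (log2 change -0.19, adjusted p = 0.30) was not called.

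The promoter windows of Chac1 and Asns are shown because both are known targets of ATF4. The letters TGATGNAA, searched on both strands, stand in 4.06% of all windows and in 2.35% of the windows of tested genes. They stand in 3.91% of the windows of genes called at least 2-fold higher (23 of 588) and in 1.13% of those called at least 2-fold lower (5 of 442). The Chac1 window (chr2:119350992-119351291, plus strand) has 1 match from base 58, on the opposite strand, and the Asns window (chr6:7693160-7693459, minus strand) has 1 from base 228.
Chac1: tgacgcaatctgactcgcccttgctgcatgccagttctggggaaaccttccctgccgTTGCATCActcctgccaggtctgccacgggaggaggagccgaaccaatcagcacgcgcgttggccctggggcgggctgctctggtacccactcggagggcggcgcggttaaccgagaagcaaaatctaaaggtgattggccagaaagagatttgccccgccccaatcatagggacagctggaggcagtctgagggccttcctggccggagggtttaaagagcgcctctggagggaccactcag
Asns: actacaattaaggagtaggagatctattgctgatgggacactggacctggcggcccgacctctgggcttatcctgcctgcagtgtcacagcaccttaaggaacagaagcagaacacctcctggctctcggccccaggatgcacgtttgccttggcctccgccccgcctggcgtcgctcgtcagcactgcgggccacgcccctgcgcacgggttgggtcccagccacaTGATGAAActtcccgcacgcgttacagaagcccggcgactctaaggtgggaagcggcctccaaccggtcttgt
The 6 windows printed here were chosen from 24 after a search for letters tied to their genes. Of the 24, 9 held a match, and the 6 came from these. Among those without a match were Cxcl1, Cxcl2 and Lcn2, searched for NF-kB letters, and Hspa1a and Hspa1b, searched for a heat shock element.

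Heat shock genes split: of 29 tested, 11 (37.9%) were called higher and 7 (24.1%) lower, with a median log2 change of 0.17. Hspa1a read 7.60, 7.02, 8.52 and 8.58 in the obese 80% livers, against 4.66, 4.68, 4.64 and 4.49 in the obese sham livers (at least 8.74-fold higher, adjusted p = 1.7e-07). Hspa1b (2.77), its near-identical neighbour, rose too, with Bag3 (1.36) and Fkbp5 (1.13), while Fkbp4 (-1.43) and Dnaja1 (-1.32) fell. Whether the probes tell Hspa1a and Hspa1b apart was not tested. Of 24 NRF2 targets, 6 (25%) were higher, a share near the 23.9% of all genes. Lower were 4 (16.7%), against 28.4% of all genes, and the median log2 change was -0.02. The rises were led by Srxn1 (3.48), Hmox1, Gclc (2.18), Osgin1 (2.12) and Txnrd1 (1.81). Catalase (-0.39 for Cat) was among the falls, and Nqo1 (log2 change -0.19, adjusted p = 0.29) was not called. Of 17 glucocorticoid targets, 11 (64.7%) were higher, Cdkn1a and Fkbp5 included, against 23.9% of all genes. Lower were 3 (17.6%), Tsc22d3 (-2.43) among them, against 28.4% of all genes.

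Iron genes leaned lower, with 4 of 21 higher and 9 (42.9%) lower. The BMP targets Id1 (1.73), Id3 (1.56) and Id2 (1.27) rose, and Hamp2 (-1.64), the iron exporter Slc40a1 and the transferrin receptor Tfrc (-1.08) fell. Interferon-induced and antigen presentation genes were higher in 3 and lower in 14 (37.8%) of 37, with Dhx58 (-1.11) and Ifit3 (-0.94) among the falls. The respiratory chain had 0 of 58 subunits higher and 11 (19%) lower, and the lysosome and autophagy list 6 of 39 higher, led by Sqstm1 (2.01) and Ctsl (1.82, detected on 3 of 4 obese sham arrays), and 12 (30.8%) lower, led by Ulk2 (-1.18). The share of lower genes over all genes was 28.4%, so neither list stood above that background by much.

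Cholangiocyte markers were few: of 6 tested, Sox9 (2.91), Tspan8 (1.20, detected on 3 of 4 obese sham arrays) and Anxa3 (1.12) rose and Muc1 (at least 1.17-fold lower) fell. Of 8 erythroid markers, 0 were higher and 1 lower, Klf1 (-1.06, detected on 2 of 4 obese 80% arrays). Of 2 tested adipocyte and mesothelial markers, none was called.

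Against obese sham, the calls of Acot1, Apoc4, Apoe, Cars, Cat, Ccnd1, Cd79b, Ciart, Csf1r, Gsta1, Gsta2, Hnf4a, Insig2, Marco, Mcm5, Mgll, Mlxip, Mmp9, Muc1, Mvd, Pid1, Ppp1r3g, Slc1a4, Slc39a11 and Slc39a8 were lost under at least 1 of the alternative settings given at the end.

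The obese 80% livers were next compared with livers of obese mice that had lost 70%, also 6 h after surgery. The arrays of these groups lay on different slides, and slides were linked only through lean 80% arrays that lay on both. Of 10765 genes, 792 (7.36%) were called different, 438 (4.07%) higher and 354 (3.29%) lower after 80%. With slide as a fixed block, 246 (2.29%) were higher and 281 (2.61%) lower, and 105 of the higher and 85 of the lower genes were among those called without it. The split also moved with the scaling, to 348 higher and 578 lower with upper-quartile scaling and to 194 and 45 without normalization between arrays. The count of probes called, 1314 (6.69%), rested on single arrays, and was 750, 499 and 503 without obese 80% array 1, 3 or 4, and 582, 646 and 494 without obese 70% array 1, 2 or 3. The values given below as slide-adjusted come from the fit with slide as a fixed block.

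Inflammatory genes were among those higher after the larger resection. Slpi, an inhibitor of neutrophil elastase, read 10.43, 9.01, 10.74 and 10.43 in the obese 80% livers, against 8.14, 8.11, 7.52 and 9.18 in the obese 70% livers (difference 1.92, SE 0.37, adjusted p = 0.0034, slide-adjusted 2.81, adjusted p = 0.014). Cd14 read 10.72, 10.86, 11.01 and 10.96 in the obese 80% livers, against 8.86, 8.69, 8.78 and 9.76 in the obese 70% livers (difference 1.86, SE 0.20, adjusted p = 3.0e-05, slide-adjusted 2.17, adjusted p = 0.0025). The groups did not overlap for Cd14, and for Slpi the lowest obese 80% array was below the highest obese 70% array. Cxcl2 (difference 1.87, SE 0.33, adjusted p = 0.0020), the scaffold protein gene Akap12 (difference 1.72, SE 0.23, adjusted p = 2.2e-04) and Ch25h (difference 1.70, SE 0.24, adjusted p = 2.8e-04) also kept their call in the slide-adjusted fit, with adjusted p-values of 0.0017, 0.0037 and 0.0034. Of the 8 neutrophil markers, 6 were higher after 80% and 0 lower, against 4.07% and 3.29% of all genes, and 4 higher and 0 lower in the slide-adjusted fit.

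Other genes kept or lost their call with the slide term. Hspa1b (difference 2.15, SE 0.41, adjusted p = 0.0032) and Hspa1a (difference 1.92, SE 0.39, adjusted p = 0.0053) were the largest positive differences without a slide term, but were not called with it (slide-adjusted 1.45, adjusted p = 0.29 for Hspa1b and 1.07, adjusted p = 0.43 for Hspa1a). Hspa1a was detected on all arrays of both groups. Cstdc4, a cystatin-type gene detected on 3 of the 4 obese 70% arrays (difference 1.72, SE 0.26, adjusted p = 3.5e-04), had a slide-adjusted difference of 1.57 with an adjusted p of 0.058. Among genes lower after 80%, Kank1 (difference -1.12, SE 0.16, adjusted p = 2.8e-04), Aldh8a1 of the kynurenine pathway (difference -1.08, SE 0.15, adjusted p = 2.2e-04) and Pid1 (difference -0.98, SE 0.18, adjusted p = 0.0023) kept their call, at 0.017, 0.034 and 0.012. Ppp1r3c (-2.56), the hyaluronidase gene Hyal1 (-1.16), the lipogenic gene Thrsp (-1.16), the clock repressor Ciart (-1.15) and Fgf1 (-1.04), each given with its difference between 80% and 70%, lost it, at 0.12, 0.068, 0.46, 0.22 and 0.054. Their slide-adjusted differences were -2.78, -1.43, -0.79, -0.96 and -1.19, so a lost call did not always go with a smaller difference.

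In the list of the unfolded protein and integrated stress responses, 0 of 30 members were higher after 80% than after 70% and 10 lower, against 3.29% of all genes lower, and 0 higher and 9 lower with the slide term. Herpud1, a member that was not called with the slide term, read 13.26, 13.45, 13.36 and 12.96 in the obese 80% livers, against 14.17, 14.02, 14.26 and 14.25 in the obese 70% livers (difference -0.92, SE 0.13, adjusted p = 3.2e-04, slide-adjusted -0.67, adjusted p = 0.11). Amino acid catabolism had 0 of 41 genes higher and 10 lower, and 0 higher and 4 lower with the slide term. The ribosome biogenesis list had 9 higher and 1 lower of 46, but 0 higher and 0 lower with the slide term. The SRF and YAP list had 6 of 19 higher, but 0 higher and 0 lower with the slide term. The comparisons of each resection with obese sham share the sham arrays, so their values are only set side by side. Mt2 differed from obese sham by 6.06 after 80% and 5.77 after 70%, and Cyp8b1 by -2.87 and -2.89.

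**Figure D4:**
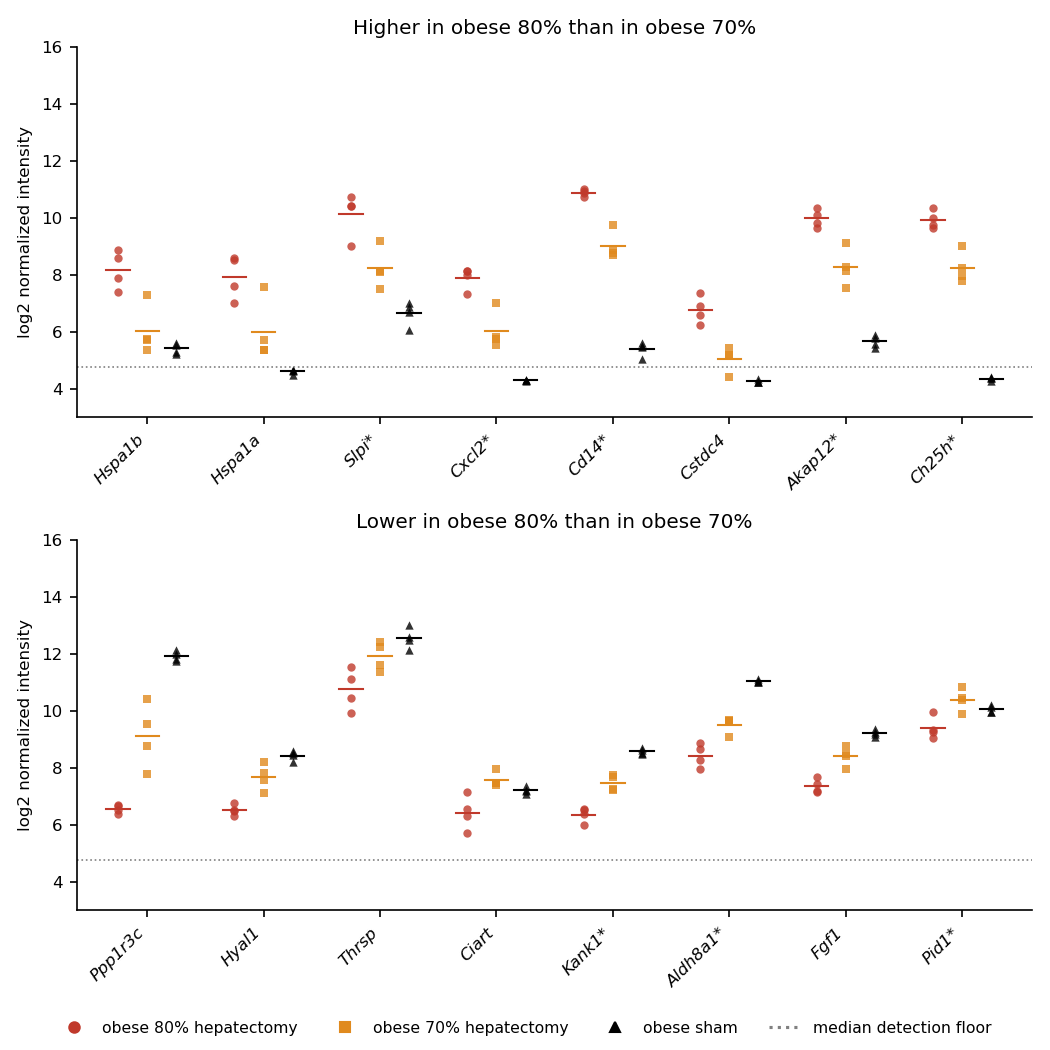
Log2 normalized intensity on each array for the 8 genes with the largest positive and the 8 with the largest negative difference between obese 80% and obese 70% livers, among genes called there and against obese sham. Red circles are obese 80% arrays, orange squares obese 70% arrays and black triangles obese sham arrays. An asterisk marks genes still called with slide as a fixed block, 8 of the 16.

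The same resection in lean mice served to ask which of the changes differ between diets. The change in obese mice, obese 80% minus obese sham, was set against the change in lean mice, lean 80% minus lean sham, by an interaction term. Each diet contrast was linked within slides, since 2 lean 80% arrays shared the slide of the obese 80% arrays and 2 obese sham arrays shared that of the lean sham arrays. Of 10765 genes, 1104 (10.3%) differed in their change, 653 (6.07%) with a more positive and 451 (4.19%) with a more negative change in obese mice. With slide as a fixed block, 166 (1.54%) and 180 (1.67%) did, and 146 of the more positive and 168 of the more negative ones were among those called without it. Of the probes, 1779 (9.06%) were called. Without normalization between arrays, 165 genes were more positive and 172 more negative.

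Lipid genes were among the most different. G0s2 fell in obese mice, as above, and in lean mice it read 11.70, 11.26, 12.10 and 10.85 in the lean 80% livers, against 9.43, 9.04, 9.83 and 10.21 in the lean sham livers (difference of changes -5.33, SE 0.39, adjusted p = 9.9e-09, slide-adjusted -5.24, adjusted p = 3.5e-06). The direction was thus opposite in the 2 diets, with no overlap between resected and sham livers in either. Cidec, a droplet protein, read 10.97, 10.21, 10.75 and 10.97 in the obese 80% livers, against 8.42, 8.72, 9.15 and 8.58 in the obese sham livers, and 10.38, 10.62, 11.94 and 10.07 in the lean 80% livers, against 4.43, 4.45, 4.62 and 4.49 in the lean sham livers (difference of changes -4.25, SE 0.42, adjusted p = 1.2e-06, slide-adjusted -4.36, adjusted p = 5.7e-05). No lean sham array detected it, so the size of its difference depends on the detection floor.

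Acot3, a peroxisomal thioesterase under PPARA control, read 8.40, 7.59, 8.06 and 7.38 in the obese 80% livers, against 9.13, 9.32, 9.94 and 9.98 in the obese sham livers, and 8.91, 8.99, 8.33 and 8.84 in the lean 80% livers, against 5.64, 5.49, 5.87 and 7.35 in the lean sham livers (difference of changes -4.41, SE 0.54, adjusted p = 2.1e-05, slide-adjusted -3.87, adjusted p = 0.0019). It fell in obese mice and was higher after resection in lean mice. Acot1, its cytosolic neighbour (difference of changes -3.21, SE 0.55, adjusted p = 6.6e-04), and Cyp4a31 (difference of changes -3.39, SE 0.55, adjusted p = 3.4e-04) differed the same way and kept their call in the slide-adjusted fit. Of 30 genes of fatty acid oxidation and PPARA, 0 had a more positive and 14 a more negative change in obese mice. With the slide term, 0 were more positive and 9 more negative. Over all genes, 4.19% were more negative, and 1.67% with the slide term. Elovl3 (difference of changes -3.04, SE 0.48, adjusted p = 3.0e-04), the carrier gene Slc16a5 (difference of changes -3.26, SE 0.54, adjusted p = 4.9e-04) and the laminin gene Lamb3 (difference of changes -3.74, SE 0.33, adjusted p = 1.7e-07) also had more negative changes, with slide-adjusted p-values of 0.0046, 3.7e-04 and 6.8e-06.

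Genes with a more positive change in obese mice included acute phase and chemokine genes. Saa1 changed by 3.03 in obese and 0.57 in lean mice, but it read 15.04 to 15.32 in the lean 80% livers and 13.90 to 15.16 in the lean sham livers, near the top of the scale at 15.4. This leaves little room for a lean change, and although the interaction term was called (difference of changes 2.46, SE 0.28, adjusted p = 7.9e-06, slide-adjusted 2.52, adjusted p = 3.7e-04), it does not show a larger change in obese mice. The same holds for Orm1 (difference of changes 1.21, SE 0.15, adjusted p = 2.4e-05), another acute phase gene near the top of the scale. Cxcl1 changed by 4.91 and 2.62 (difference of changes 2.29, SE 0.38, adjusted p = 4.9e-04, slide-adjusted 2.68, adjusted p = 0.0021). Of 24 acute phase genes, 6 had a more positive and 0 a more negative change, Saa1 and Orm1 included. With the slide term, 2 were more positive and 0 more negative, and these 2 were Saa1 and Orm1, both near the top of the scale. Of 23 chemokine genes, 5 were more positive and 0 more negative, and 4 and 0 with the slide term. Over all genes the shares were 6.07% and 4.19%, and 1.54% and 1.67% with the slide term. Angpt2, an endothelial growth factor (difference of changes 1.92, SE 0.37, adjusted p = 0.0021), the hedgehog ligand Ihh (difference of changes 2.07, SE 0.29, adjusted p = 6.2e-05) and the sterol enzyme gene Mvd (difference of changes 2.03, SE 0.34, adjusted p = 4.9e-04) kept their call with the slide term. Ihh was detected on 2 obese sham arrays and 1 lean 80% array, and Mvd on no lean 80% array. Hspa1a (difference of changes 2.57, SE 0.55, adjusted p = 0.0045), Hspa1b (difference of changes 2.23, SE 0.58, adjusted p = 0.016) and Cdh1 (difference of changes 1.89, SE 0.39, adjusted p = 0.0031) were not called with the slide term, at 0.097, 0.19 and 0.066. In the comparison of obese 80% with obese sham, another probe of Cdh1 was called the other way.

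Further lists were compared between diets. Over all genes, 6.07% had a more positive and 4.19% a more negative change, and 1.54% and 1.67% with the slide term. Ribosome biogenesis genes had a more positive change in 14 and a more negative one in 0 of 46, and 5 more positive and 0 more negative with the slide term. Amino acid catabolism genes had a more positive change in 0 and a more negative one in 11 of 41, and 0 more positive and 6 more negative with the slide term. The lipid droplet list had 1 and 6 of 24, and 0 more positive and 6 more negative with it. Fatty acid synthesis genes were divided, with 5 more positive and 5 more negative without the slide term. Srebf1 changed by -1.82 in obese and -2.84 in lean mice (difference of changes 1.01, SE 0.31, adjusted p = 0.043, slide-adjusted 1.25, adjusted p = 0.085).

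**Figure D5:**
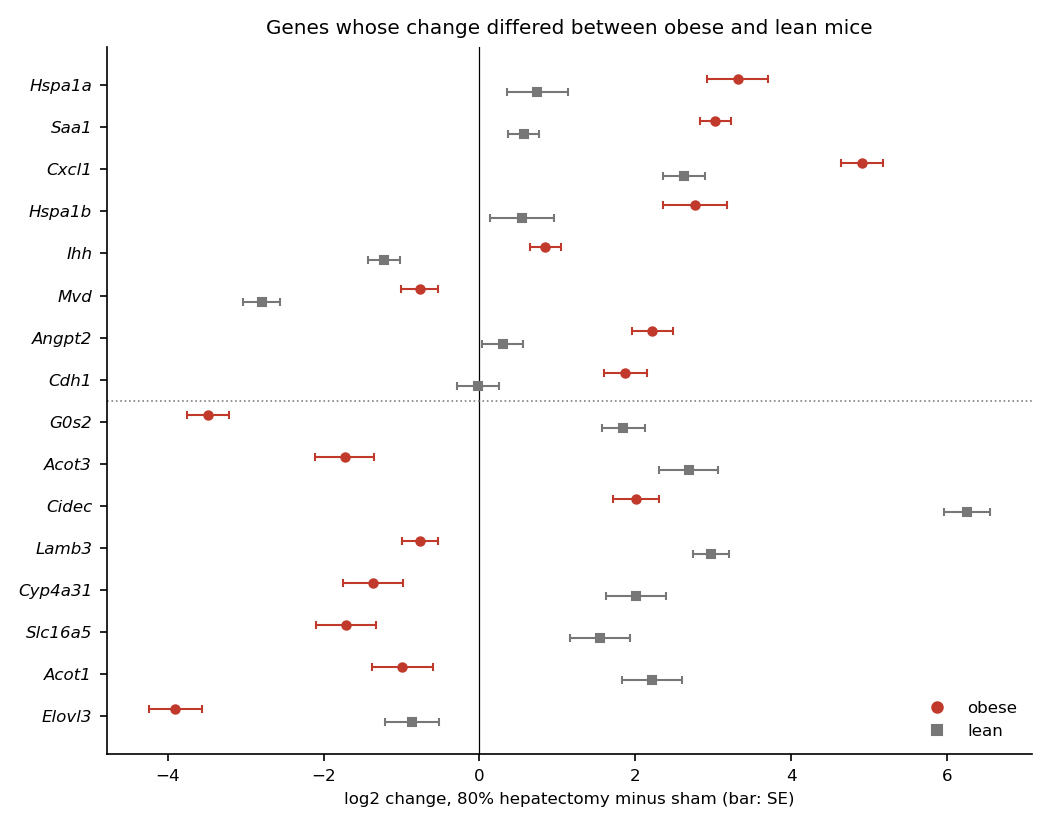
Log2 change after 80% hepatectomy against sham surgery in obese mice (red circles) and lean mice (grey squares), with the SE as a bar, for the 8 genes with the most positive and the 8 with the most negative difference between the diets, among genes called there and against obese sham. G0s2 and Acot3 lie on opposite sides of 0 in obese and lean mice. Saa1 lies near the top of the intensity scale in lean sham livers, which limits its lean change.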

How the data were processed

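Whole-liver RNA of 24 arrays was labelled with biotin and read on Illumina BeadChips, per the labels' protocols. The authors deposited a linear intensity per probe and array, not normalized between arrays, with a detection score per probe. The file header calls this score a p-value, but it rises with brightness, so 1 minus the score served as the detection p. No label or file header names the scanner software or its background settings. The authors also deposited log2 values, and recomputing them from the intensities, as quantile-normalized and centred on each probe's median, differed by at most 0.00957.

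From the intensities, the background was corrected by normexp from the detection p with an offset of 16, followed by quantile normalization and log2 (limma 3.58.1 in R 4.3.3). Of 45281 probes, 19631 with detection p under 0.05 on at least 4 arrays were tested by limma on 6 group means, 2-sided, with 18 residual degrees of freedom and Benjamini-Hochberg adjustment over all of them. GEO's platform annotation gave 1 gene to 34885 probes, several to 18 and none to 10378, and 34807 of the first were matched to current symbols by Entrez ID. A gene was read by its detected probe of highest mean. Where no array of a group detected the probe, its floor was, per array, the higher of the probe's own value and the lowest signal among detected probes. No interval for counting error applies to arrays, and their number limits the precision.

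The members and the 55 gene lists (1499 genes, 1204 tested) were chosen with earlier results of these data known. Named were the 15 largest rises and 15 largest falls among called genes whose groups did not overlap, up to 5 called members each way and up to 3 well-known members not called of each list (any member of lists with at most 12 tested), and the 8 largest differences each way in the other comparisons among genes also called against obese sham. Hgf, Il6, Orm1 and Srf fall outside this rule and were chosen after their values were seen. In data simulated for the obese 80% against obese sham comparison over 19631 probes, 39 of 100 changes of 0.5 and 98 of 100 changes of 1 on the log2 scale were recovered, with 6 unchanged probes called. Only those probes carried a change, against 9726 called in the data, so the recovery there may differ. Alternatives covered background, scaling, detection filter, slide, replicate block, variance trend, array weights and leaving out arrays. Promoter windows came from RefSeq for GRCm38.p6.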

Additional observations from a re-analysis of the deposited data

Results flagged for a closer look

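Among 596 sets of 4 arrays, one for each named gene in the obese 80% and in the obese sham group, 36 held 1 array whose gap to its nearest neighbour was larger, as a share of the range of the set, than Dixon's critical value for 4 samples. Chance flags about 1 in 20 such sets.

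In the obese 80% group, the log2 value on the array that stood apart is given with the range of the other arrays of the group in parentheses. On obese 80% array 1 the values that stood apart were Hspa5 at 8.82 (9.56 to 9.68), Junb at 8.94 (9.65 to 9.68) and Kcnk5 at 6.72 (6.25 to 6.32). On obese 80% array 2 the values that stood apart were Cyp2c38 at 4.65 (5.13 to 5.18), Cyp3a25 at 10.51 (10.78 to 10.81), Irs1 at 4.98 (4.55 to 4.56) and Pck1 at 10.50 (9.77 to 9.89). The same held on obese 80% array 2 for Plin2 at 12.09 (12.41 to 12.45), Sars at 7.75 (7.99 to 8.0), Tfrc at 7.19 (7.73 to 7.78) and Tnfrsf12a at 10.91 (11.39 to 11.43). The same held on obese 80% array 2 for Ugt2a3 at 9.19 (8.85 to 8.89). On obese 80% array 3 the values that stood apart were Marco at 6.42 (5.92 to 5.99) and Muc1 at 4.75 (4.65 to 4.66). On obese 80% array 4 the values that stood apart were Adamts9 at 8.23 (7.79 to 7.80), Cyp7a1 at 5.82 (4.42 to 4.50), Gys2 at 7.68 (7.99 to 8.05) and Tef at 7.46 (7.86 to 7.92).

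In the obese sham group, the log2 value on the array that stood apart is given with the range of the other arrays of the group in parentheses. On obese sham array 1 the values that stood apart were Cdk1 at 4.70 (4.84 to 4.86), Orm1 at 13.46 (13.15 to 13.17), Pdk1 at 8.66 (8.91 to 8.95) and Pygl at 12.78 (12.93 to 12.96). The same held on obese sham array 1 for Rpl12 at 10.81 (10.90 to 10.92). On obese sham array 2 the values that stood apart were Cenpa at 7.94 (7.97 to 7.98), Cxcl1 at 7.59 (8.02 to 8.07), Inhbe at 7.71 (8.23 to 8.31) and Marco at 4.72 (5.42 to 5.45). On obese sham array 3 the values that stood apart were Aatk at 10.51 (10.96 to 11.04), Cyp2c54 at 7.97 (8.48 to 8.54), Fcgr2b at 8.23 (8.64 to 8.72) and Hgf at 6.55 (6.18 to 6.23). The same held on obese sham array 3 for Il6 at 4.56 (4.32 to 4.34). On obese sham array 4 the values that stood apart were Apobec1 at 6.74 (7.11 to 7.18), Fkbp5 at 8.55 (8.83 to 8.87), Klf6 at 7.15 (6.94 to 6.96) and Mt2 at 4.69 (5.29 to 5.38).

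The change after 80% hepatectomy differed between obese and lean mice (interaction term of limma, adjusted p under 0.05) for 73 of the named genes. The number beside each symbol is the log2 change in obese mice minus that in lean mice. In 34 genes it was positive. The widest differences of this kind were those of Hspa1a (2.57), Saa1 (2.46), Cxcl1 (2.29), Hspa1b (2.23), Ihh (2.07), Mvd (2.03), Angpt2 (1.92), Cdh1 (1.89) and S100a9 (1.86). Next came Cxcl2 (1.86), Saa2 (1.80), S100a8 (1.74), Fpr2 (1.59), Cstdc4 (1.58), Socs3 (1.44), Mid1ip1 (1.35), Ly96 (1.34) and Orm1 (1.21). Smaller ones were those of Srm (1.20), Ccl7 (1.19), Cyp2c70 (1.12), Tnfrsf12a (1.08), Gadd45g (1.04), Srebf1 (1.01), Slc30a7 (0.95), Il1r2 (0.92) and Ern1 (0.89). The narrowest were those of Gar1 (0.85), Mxd1 (0.81), Slc39a6 (0.75), Tyk2 (0.71), Plin3 (0.70), Sars (0.57) and Snrpd1 (0.57). Saa1 and Orm1 lay near the top of the intensity scale in lean livers, which limits the change that could be read there. Other genes lay below the detection floor in lean livers, so the size of their lean change depends on that floor. Among them were Cxcl2, Ccl7, Il1r2 and Cstdc4 on every lean sham array and Mvd on every lean 80% array.

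In 39 genes it was negative. The widest differences of this kind were those of G0s2 (-5.33), Acot3 (-4.41), Cidec (-4.25), Lamb3 (-3.74), Cyp4a31 (-3.39), Slc16a5 (-3.26), Acot1 (-3.21), Elovl3 (-3.04) and Cdkn1a (-2.98). Next came Irs2 (-2.43), Ppp1r3g (-2.42), G6pc (-1.91), Acot4 (-1.81), Insig2 (-1.75), Fst (-1.74), Arntl (-1.72), Dusp8 (-1.61) and Pck1 (-1.60). Smaller ones were those of Aass (-1.50), Acot2 (-1.48), Lpin1 (-1.37), Fgf1 (-1.28), Hyal1 (-1.24), Tead1 (-1.21), Socs2 (-1.18), Tfrc (-1.16) and Kynu (-1.11). Others of this sign were Tat (-1.09), Ptpn2 (-1.07), Plin2 (-1.07), Cyp2c38 (-1.06), Ugt2a3 (-0.93), Nr1i3 (-0.87), Trp53inp2 (-0.87), Acadl (-0.77) and Angptl4 (-0.76). The narrowest were those of Cdkn1c (-0.71), Thbd (-0.58) and Arg1 (-0.47). Here too some genes lay below the detection floor in lean livers, among them Cidec, Acot2, Dusp8 and Ptpn2 on every lean sham array. Cyp2c38 was below it on every array of lean sham and lean 80% livers, so its lean change was not measured. With slide as a fixed block, 34 of the 73 genes were still called.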

How the results depend on the processing

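Between obese 80% and obese sham, the count of probes called stayed within 1.5 times the main 9726 under every alternative run, from 7853 to 11136. With slide as a random block (estimated correlation within slide 0.12), 8345 probes were called. Leaving out 1 array gave 8869 to 9204 probes, with 2361 to 2493 genes higher and 2796 to 2870 lower. Deviations of same-numbered obese 80% and obese sham arrays correlated at 0.01, 0.08, 0 and 0.12, against at most 0.12, 0.05, 0.05 and 0.05 with another number. These low values do not settle whether the numbers pair the arrays. The replicate block gave 9701 probes against obese sham, 1266 against obese 70% and 1782 for the difference between diets. It changed the call of Muc1 alone among the called genes named here.

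The comparison with obese 70% varied most. Its main count of 1314 probes (438 genes higher, 354 lower) became 393 without normalization between arrays (194 and 45 genes), 378 with slide as a random block (154 and 88), 3305 with array weights (947 and 997) and 808 with slide as a fixed block, with 246 genes higher. Upper-quartile scaling gave 578 genes lower. Leaving out 1 array gave 494 to 1656 probes, 196 to 540 genes higher and 100 to 462 lower, and the arrays whose loss moved the count most are named in the report. For the difference between diets, the main 1779 probes (653 genes more positive, 451 more negative) became 555 without normalization (165 and 172) and 574 with slide as a fixed block (166 and 180), and 1292 to 1971 when 1 array was left out, with 448 to 732 and 342 to 488 genes. The cause of these shifts was not tested.

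Of 278 named genes called against obese sham, 253 kept direction and call under every alternative run, 25 lost the call under at least 1 and 0 reversed. Among named genes that were not called, 7 became called under at least 1 alternative, and the sign turned in Calr (0.032 with only the obese sham arrays of the second slide), Crp (-0.027 with slide as a random block) and Cyp2e1 (0.21 with upper-quartile scaling and 0.13 without normalization between arrays). It also turned in Hamp (0.16 with upper-quartile scaling, 0.079 without normalization between arrays and 0.062 with only the obese sham arrays of the first slide), Pcna (-0.021 with only the obese sham arrays of the second slide) and Scd1 (0.17 with upper-quartile scaling, 0.087 without normalization between arrays, 0.32 with only the obese sham arrays of the first slide and -0.31 to 0.10 when 1 array was left out). All log2 changes of low-intensity probes are limited by the background, and the 4 arrays of a group limit the precision of every mean. Slide and surgery cannot be told apart against obese sham. In simulated data, where far fewer probes changed than were called here, a change of 0.5 on the log2 scale was recovered for 39 of 100 probes. A change of 1 was recovered for 98 of 100.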
